A study of Mus musculus with 16 samples.

Results

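Urate oxidase and 6 other genes of purine breakdown and reuse, 7 of the 26357 genes in the count table, were examined in RNA from mice given IL-23 or its vehicle. The genes were Uox, Urah, Xdh, Gda, Pnp, Ada and Hprt, found in the table by symbol. They had been picked because earlier results of these same counts were known, so their difference between IL-23 and vehicle is described here and not tested. All 7 passed the filter on low counts, which Uox could do only through the libraries in which it was high.

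Purines are broken down in a short chain of enzymes. Adenosine deaminase turns adenosine into inosine, purine nucleoside phosphorylase frees the base, guanine deaminase turns guanine into xanthine, and xanthine dehydrogenase oxidises hypoxanthine and xanthine to urate. In most mammals urate oxidase then opens the way to allantoin through hydroxyisourate, which hydroxyisourate hydrolase removes; humans lack a working urate oxidase and excrete urate. Hypoxanthine and guanine can also be rescued from the chain by the salvage enzyme encoded by Hprt. Urate oxidase is best known from liver peroxisomes.

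The 16 libraries fell into 4 groups of 4. IL-23 mice received a drug vehicle holding 0 mpk of compound, by mouth (PO) in one group and into the peritoneum (IP) in another. Vehicle mice received the IL-23 vehicle and a drug vehicle at 0 mpk by the same 2 routes. Whether the PO and IP drug vehicles had the same make-up is not stated, so route and drug vehicle cannot be told apart. The labels name no tissue, strain, sex, age or day of harvest, and each library carries a number that is used as its name here. Nothing states that each number is a separate mouse, so the p-values reflect only how these libraries scatter, which may be technical.

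Library totals ran from 6381990 to 10078531 counts in IL-23 mice and from 7159325 to 14432930 in vehicle mice. Of 16 lists of cell type markers, the activated keratinocyte, suprabasal keratinocyte, neutrophil and proliferation lists had higher summed levels in all 8 IL-23 libraries than in any vehicle library. The sebaceous gland, adipocyte, skeletal muscle, cartilage and mast cell lists were lower in all 8. The 10 hepatocyte markers were near 0, with summed levels of 0.851 to 4.15 CPM (reads scaled to library size) in IL-23 libraries and 3.14 to 8.33 CPM in vehicle libraries, and Fgb and Serpina1a had no count in any library. IL-23 IP library 28 stood apart from the other 7 IL-23 libraries. Its monocyte and macrophage markers summed to 1600 CPM against 335 to 663 CPM in the other 7, its fibroblast markers to 5208 CPM against 1007 to 1867 CPM, and its T cell markers to 97.8 CPM against 19.9 to 37.9 CPM. It was also the highest of them for the endothelium, mast cell and proliferation lists. It was the lowest for basal (20464 against 22297 to 29897 CPM) and suprabasal keratinocyte markers (20953 against 27932 to 48680 CPM). The same held for activated keratinocyte (30165 against 32526 to 50232 CPM) and sebaceous gland markers (7373 against 7492 to 11043 CPM). In bulk RNA, fewer cells of a type and less RNA per cell cannot be told apart.

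The sequence before the transcription start is shown for the 4 members with the largest differences among those matched, to let their control regions be read beside their values. RefSeq promoters on GRCm38.p6 were matched for 6 of the 7 members. Each line gives the 250 bases before a transcription start in the RefSeq table, 5′ to 3′ on the gene's strand, and capitals mark matches to the motifs named after them. For Uox, Ada and Gda that start coincides with the 5′ end of the annotated gene. Urah has 2 starts in the table, and the one shown lies within its annotated span (chr7:140834958-140837971), so 180 of its 250 bases, the marked stretch among them, are inside the gene.
Uox (chr3:146596899-146597148, plus strand): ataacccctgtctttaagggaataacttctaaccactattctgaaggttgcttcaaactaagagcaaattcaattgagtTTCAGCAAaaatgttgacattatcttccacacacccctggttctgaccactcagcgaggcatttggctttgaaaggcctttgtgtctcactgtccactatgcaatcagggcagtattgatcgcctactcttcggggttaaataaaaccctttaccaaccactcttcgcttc
Urah (chr7:140834888-140835137, plus strand): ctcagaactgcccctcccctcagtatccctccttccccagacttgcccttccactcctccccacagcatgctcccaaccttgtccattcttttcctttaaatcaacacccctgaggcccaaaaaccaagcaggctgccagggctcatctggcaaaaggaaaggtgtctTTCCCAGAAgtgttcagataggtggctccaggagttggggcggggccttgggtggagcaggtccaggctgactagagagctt
Ada (chr2:163750240-163750489, minus strand): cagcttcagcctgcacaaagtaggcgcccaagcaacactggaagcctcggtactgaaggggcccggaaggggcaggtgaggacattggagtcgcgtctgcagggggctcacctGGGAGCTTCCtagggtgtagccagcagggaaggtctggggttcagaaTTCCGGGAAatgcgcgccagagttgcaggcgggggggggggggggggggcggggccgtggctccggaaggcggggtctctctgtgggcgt
Gda (chr19:21472662-21472911, minus strand): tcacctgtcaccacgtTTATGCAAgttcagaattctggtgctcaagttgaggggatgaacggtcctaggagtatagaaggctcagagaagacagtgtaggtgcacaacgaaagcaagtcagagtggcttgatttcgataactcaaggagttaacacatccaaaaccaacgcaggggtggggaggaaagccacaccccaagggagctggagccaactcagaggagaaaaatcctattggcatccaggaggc
The motifs, searched on both strands, were a STAT motif (TTCNNNGAA), an AP-1 motif (TGANTCA), a C/EBP motif (TTGCNNAA), an NF-kB motif and a TATA motif (TATAAA). The capitals in Uox, 171 to 164 bases before the start, and those in Gda, 234 to 227 bases before it, match the C/EBP letters, which 9.56% of the 32851 promoter windows in the RefSeq table hold. The capitals in Urah, 82 to 74 bases before the start used and inside the gene's span, and the second stretch in Ada, 90 to 82 bases before it, match the STAT letters, held by 7.02% of windows. The first stretch in Ada, 137 to 128 bases before the start, matches the NF-kB motif, held by 7.25% of windows. Pnp had a C/EBP match and Hprt had a match to none of the 5 motifs, while AP-1 (6.75% of windows) and TATA (12.4%) matched none of the 6 promoters. These are matches of letters, and no binding was measured.

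Uox transcripts, which code for the enzyme that oxidises urate, were abundant in every IL-23 library and barely counted in vehicle libraries. The gene lies on the plus strand of chromosome 3 (chr3:146597149-146631483). After PO dosing it had 154, 123, 229 and 114 CPM in IL-23 libraries 14, 24, 26 and 68, against 0.239, 0, 0.600 and 0.101 CPM in vehicle libraries 4, 27, 33 and 51. After IP dosing it had 186, 115, 122 and 161 CPM in IL-23 libraries 25, 28, 31 and 61, against 0.589, 0.132, 0.238 and 0.2 CPM in vehicle libraries 49, 50, 59 and 67. The lowest IL-23 library was thus far above the highest vehicle library in both routes, and library 26 was the highest of all. The vehicle levels rest on 0 to 9 reads per library, while each IL-23 library held 940 to 1805 reads. A count of 0 in library 27 allows a level of up to 0.365 CPM.

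Pooled over libraries, 4831 Uox reads were counted in IL-23 PO mice and 13 in vehicle PO mice, a depth-adjusted ratio of 536 (95% exact interval 313 to 1007). The IP groups held 4136 reads in IL-23 mice and 15 in vehicle mice, a ratio of 428 (259 to 766). These intervals cover counting error only. The fitted log2 fold change was 9.03 ± 0.39 (SE) after PO dosing and 8.74 ± 0.38 after IP dosing, the sixth and the third highest of 14671 genes tested. Vehicle libraries 33 and 49, with 9 reads each, set much of the size: without library 33 the PO value was 10.07, and without library 49 the IP value was 9.42. The SEs of these 2 Uox values were taken from the F statistic and understate the error. In the same fit, the difference between the 2 values had an SE of 0.96. Dnase2b, which codes for a deoxyribonuclease and whose span overlaps that of Uox, had 5 reads in IL-23 PO mice, 1 in IL-23 IP mice, 1 in vehicle PO mice and 0 in vehicle IP mice.

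**Figure D1:**
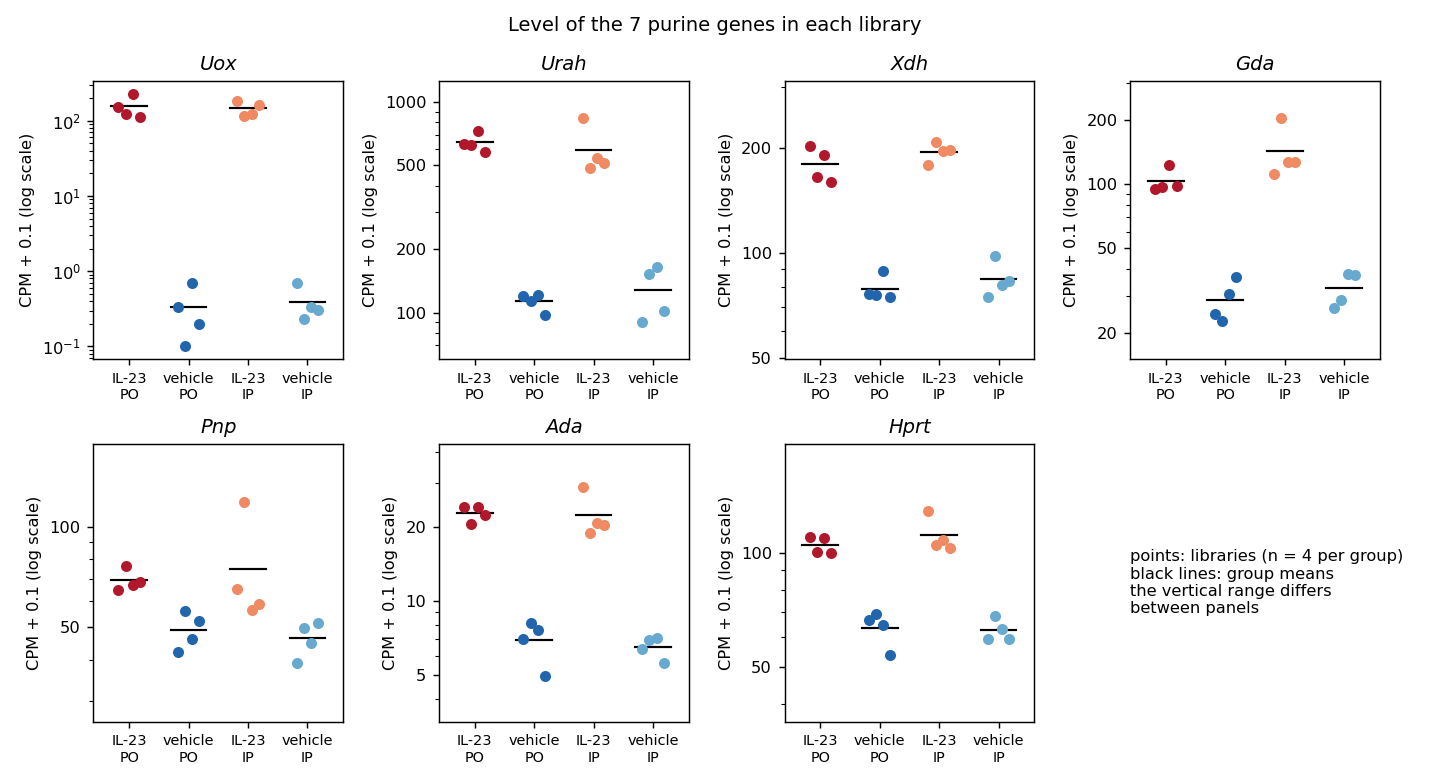
Level of each of the 7 genes in each library, as CPM + 0.1 on a log axis whose range differs between panels; points are libraries (n = 4 per group) and black lines are group means. In every panel all IL-23 libraries sit above all vehicle libraries of the same route, and the gap is widest for Uox, at 114 to 229 CPM in IL-23 libraries against 0 to 0.600 CPM in vehicle libraries.

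Urah, which codes for the hydrolase that removes the product of urate oxidase, was the most abundant of the 7 genes in all 4 groups. It had 634, 627, 728 and 579 CPM in IL-23 PO libraries 14, 24, 26 and 68, against 120, 114, 121 and 97.6 CPM in vehicle PO libraries 4, 27, 33 and 51. It had 838, 485, 541 and 513 CPM in IL-23 IP libraries 25, 28, 31 and 61, against 90.4, 153, 165 and 102 CPM in vehicle IP libraries 49, 50, 59 and 67. The groups did not overlap, and library 25 stood well above the other 3 IL-23 IP libraries. The log2 fold change was 2.50 ± 0.20 (PO) and 2.22 ± 0.19 (IP), and 2.01 in the IP comparison without library 25. In GENCODE M21, 177 exon bases of Urah are shared with the antisense gene C330022C24Rik, and the strand setting used for counting is not given, so reads of the pair could not be told apart if it was off. The next enzyme of the same path, encoded by Urad, had no count in any of the 16 libraries, which allows up to 0.0197 CPM over the pooled libraries. Allc, which codes for the enzyme that degrades allantoate, had 0 reads in IL-23 libraries and 4 in vehicle libraries.

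Xdh, which codes for the enzyme that makes urate, had 203, 165, 191 and 160 CPM in IL-23 PO libraries 14, 24, 26 and 68, against 76.4, 75.6, 88.8 and 74.6 CPM in vehicle PO libraries 4, 27, 33 and 51. It had 179, 208, 197 and 197 CPM in IL-23 IP libraries 25, 28, 31 and 61, against 75, 98.2, 80.8 and 83.4 CPM in vehicle IP libraries 49, 50, 59 and 67. Libraries of a group lay close together and the groups were well apart. The log2 fold change was 1.19 ± 0.10 (PO) and 1.21 ± 0.10 (IP). With plain library sizes in place of TMM factors it was 0.99 (PO) and 1.0 (IP); that scaling moved the median of all genes to -0.26 (PO) and -0.23 (IP), against -0.06 and -0.02 with TMM.

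Gda, which codes for the deaminase that feeds guanine into the chain, had 94.7, 97.0, 123 and 98.4 CPM in IL-23 PO libraries 14, 24, 26 and 68, against 24.6, 22.7, 30.4 and 36.6 CPM in vehicle PO libraries 4, 27, 33 and 51. It had 112, 204, 128 and 127 CPM in IL-23 IP libraries 25, 28, 31 and 61, against 26.0, 28.5, 37.9 and 37.3 CPM in vehicle IP libraries 49, 50, 59 and 67. Library 28, the one with high monocyte, fibroblast and T cell markers and low keratinocyte markers, was the highest. The part of these marker differences in its Gda level was not tested. The log2 fold change was 1.85 ± 0.19 (PO) and 2.14 ± 0.19 (IP), and 1.93 in the IP comparison without library 28.

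Pnp, which codes for the phosphorylase that splits inosine and guanosine, differed least of the 7 genes. It had 64.7, 76.4, 66.7 and 68.3 CPM in IL-23 PO libraries 14, 24, 26 and 68, against 42.1, 55.9, 46.0 and 52.2 CPM in vehicle PO libraries 4, 27, 33 and 51. It had 64.9, 118, 56.2 and 58.7 CPM in IL-23 IP libraries 25, 28, 31 and 61, against 39.1, 49.7, 44.9 and 51.4 CPM in vehicle IP libraries 49, 50, 59 and 67. The groups did not overlap, but the gap was narrow and library 28 was again the highest. The log2 fold change was 0.50 ± 0.18 (PO) and 0.70 ± 0.18 (IP), and the IP value was 0.39 without library 28. With plain library sizes the PO value was 0.30. Pnp shares 718 exon bases on its own strand with Gm49342 and 356 on the other strand with Gm38316, and it lies beside the near-identical Pnp2 (51 reads in IL-23 and 42 in vehicle libraries), so its counts are uncertain to that extent.

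Ada, which codes for adenosine deaminase, was the least abundant member in IL-23 mice. It had 23.8, 20.4, 24.0 and 22.2 CPM in IL-23 PO libraries 14, 24, 26 and 68, against 6.92, 8.04, 7.53 and 4.87 CPM in vehicle PO libraries 4, 27, 33 and 51. It had 28.9, 18.7, 20.6 and 20.2 CPM in IL-23 IP libraries 25, 28, 31 and 61, against 6.28, 6.86, 6.99 and 5.50 CPM in vehicle IP libraries 49, 50, 59 and 67. Every IL-23 library was above every vehicle library by more than the spread within a group. The log2 fold change was 1.72 ± 0.16 (PO) and 1.78 ± 0.16 (IP).

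Hprt, the salvage gene, had 110, 100, 110 and 99.9 CPM in IL-23 PO libraries 14, 24, 26 and 68, against 66.6, 69.1, 64.3 and 53.9 CPM in vehicle PO libraries 4, 27, 33 and 51. It had 129, 105, 108 and 103 CPM in IL-23 IP libraries 25, 28, 31 and 61, against 59.2, 68.1, 63.0 and 59.2 CPM in vehicle IP libraries 49, 50, 59 and 67. Its libraries varied little within a group and did not overlap between agents. The log2 fold change was 0.72 ± 0.09 (PO) and 0.84 ± 0.09 (IP), and 0.53 and 0.61 with plain library sizes.

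Thus all 7 genes were higher in each IL-23 library than in each vehicle library of the same route. Of all 14671 genes tested, 27.9% did so after PO dosing and 31.8% were lower in each IL-23 library (59.7% in either direction). After IP dosing 25.1% were higher and 25.9% lower in this way (51% in either direction). Since the genes were chosen on this contrast, nothing is read from the difference. The median log2 fold change of the 7 was 1.72 (PO) and 1.78 (IP).

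Per kb of exon, Urah led the 7 genes and Hprt came next in every group, and the place of Uox differed between agents. The lengths join all exons annotated for a gene in GENCODE M21, such as 5007 bases for Uox and 1289 for Hprt. The annotation used for counting and the transcript forms present are not known, so the order between genes is uncertain to that extent. In IL-23 PO mice the mean levels per kb were 450 CPM for Urah, 81.3 for Hprt, 31.0 for Uox, 19.6 for Xdh, 17.4 for Pnp, 16.6 for Gda and 11.3 for Ada. Only the neighbours Xdh and Pnp, and Pnp and Gda, overlapped between libraries in that order. In vehicle PO mice the order was Urah (79.4 CPM per kb), Hprt (49.2), Pnp (12.3), Xdh (8.60), Gda (4.58), Ada (3.42) and Uox (0.047), with overlap between Gda and Ada alone. Uox was thus the third in IL-23 PO mice and last in vehicle PO mice. In IL-23 IP mice Urah (416 CPM per kb) and Hprt (86.3) led, and the 5 genes from Uox (29.1) through Gda (22.9), Xdh (21.3) and Pnp (18.7) to Ada (11) each overlapped the next. In vehicle IP mice the order ran from Urah (89.5 CPM per kb) and Hprt (48.4) through Pnp (11.6), Xdh (9.19), Gda (5.20) and Ada (3.20) to Uox (0.058), with overlap between Pnp and Xdh.

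**Figure D2:**
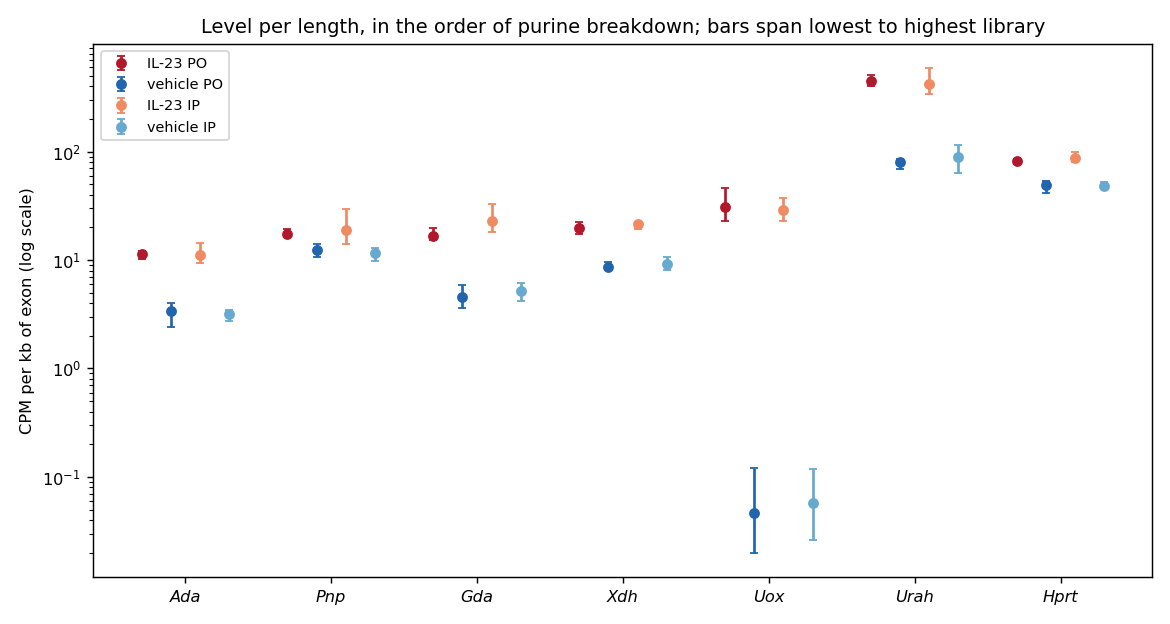
Mean CPM per kb of exon (log axis) of the 7 genes in the order of purine breakdown, with Hprt last, for the 4 groups; bars span the lowest to the highest of 4 libraries, and the lower end for a library at 0 is drawn at 0.02. The Uox point lies at 31.0 and 29.1 CPM per kb in IL-23 PO and IP mice, against 0.047 and 0.058 CPM per kb in vehicle PO and IP mice, where it lies below every other gene.

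No difference between the dosing routes was called for any of the 7 genes. The test of the IL-23 effect in IP mice minus that in PO mice called 0 of 7 (edgeR quasi-likelihood test with Benjamini-Hochberg adjustment over all 14671 genes), and none had an unadjusted p below 0.05. Among all genes it also called 0 (0%), with 796 at an unadjusted p below 0.05 (1454 without IL-23 IP library 25), and DESeq2 called 1. The differences in log2 fold change ran from -0.30 ± 0.96 for Uox (95% interval -2.18 to 1.59) to 0.29 ± 0.26 for Gda (-0.22 to 0.80), with edgeR adjusted p from 0.906 to 0.982. The low vehicle counts of Uox leave its interval wide: without vehicle IP library 49 the Uox difference was 0.39, of the opposite sign, and without vehicle PO library 33 it was -1.34.

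In vehicle mice, IP minus PO differences of the 7 genes ran from -0.10 for Ada to 0.21 ± 0.93 for Uox on the log2 scale, with edgeR adjusted p from 0.897 to 0.987. The Uox value rests on the same few reads: it was 1.25 without vehicle PO library 33, and below 0 without vehicle IP library 49 (-0.48), vehicle PO library 27 (-0.07) or vehicle PO library 51 (-0.01). The Ada value was -0.21 without vehicle PO library 51 and -0.02 without vehicle PO library 27. In IL-23 mice they ran from -0.11 for Urah to 0.47 ± 0.18 for Gda. The Urah value was -0.32 without library 25 and -0.03 without library 28. The Uox value was -0.09, and 0.16 without library 26. The Gda difference had an interval of 0.12 to 0.82, an unadjusted p of 0.0179 and an edgeR adjusted p of 0.313, and was 0.24 without library 28. Gda averaged 143 ± 41.5 CPM in IL-23 IP mice and 103 ± 13.2 CPM in IL-23 PO mice (SD, n = 4 each), and 3 of the 4 IP libraries were above all 4 PO libraries. Both route tests called 0 of 7 members and 0 (0%) of all genes by edgeR, with 1874 genes (IL-23 mice) and 1087 (vehicle mice) at an unadjusted p below 0.05. Those counts were 1093 for IL-23 mice in a fit of only the groups compared, and 602 for vehicle mice without vehicle IP library 59. DESeq2 called 57 genes in the IL-23 comparison and 1 in the vehicle comparison, none of them a member.

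The 7 genes did not vary as a block among libraries of a group. After each group's mean was subtracted from log2 CPM, Ada and Hprt varied together over the 16 libraries (Pearson r = 0.92), as did Urah with Hprt (0.77) and Urah with Ada (0.73). Library 25 was the highest IL-23 IP library for Urah, Ada, Hprt and Uox, and library 28 the highest for Pnp, Gda and Xdh. Library 25 also had the highest suprabasal keratinocyte sum of the IL-23 libraries, 48680 CPM, with library 61 next at 34641 CPM. Its TMM factor, 0.848, was the lowest of all libraries. The part of either in these correlations was not tested. For Uox, r ran from -0.47 with Pnp to 0.25 with Ada. Its deviations ran from -0.90 to 1.04 in vehicle libraries, at 0 to 9 reads, and from -0.39 to 0.62 in IL-23 libraries. The r values of Uox thus rest largely on counting error in vehicle libraries. They do not show whether Uox followed the others where it was abundant. All of these correlations are descriptions over libraries that share a scaling, and 4 libraries make up each group.

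**Figure D3:**
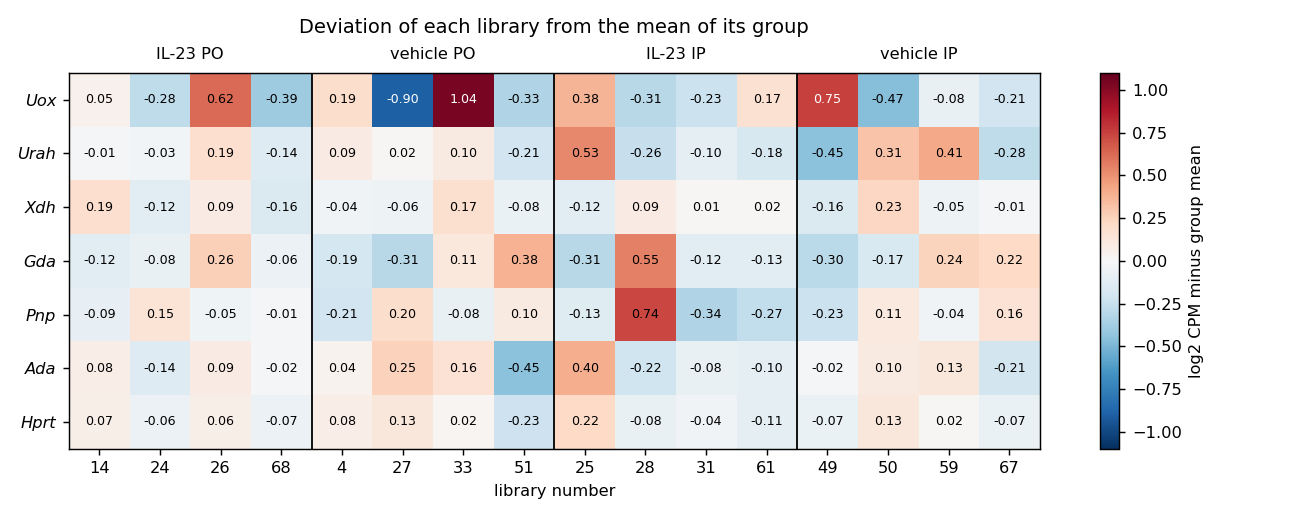
Deviation of log2 CPM from the group mean for each gene (rows) and library (columns, by number, in the 4 groups); red is above and blue below the mean. Library 25 is red for Uox, Urah, Ada and Hprt, library 28 is red for Gda and Pnp, and the vehicle libraries of Uox show the largest deviations, from -0.90 to 1.04, at counts of 0 and 9.

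The other genes of purine and pyrimidine handling moved in both directions. Of 90 listed genes, 89 were found and 72 tested. After PO dosing 26 rose, 26 fell and 20 did not pass the test in IL-23 mice; after IP dosing 28 rose, 21 fell and 23 did not pass (edgeR, adjusted p below 0.05 over all genes). Among all genes, 29.2% rose and 34% fell after PO dosing (63.3% in either direction), and 30.8% rose and 30.9% fell after IP dosing (61.7%). The median log2 fold change of the 72 was -0.06 (PO) and 0.09 (IP), beside -0.06 and -0.02 over all genes. With plain library sizes 19 rose and 31 fell after PO dosing, and 19 rose and 27 fell after IP dosing; over all called genes that scaling gave 31% rising (PO) and 31.5% (IP), where TMM gave 46.2% and 49.9%. Each log2 fold change below is from edgeR, with its SE, and the PO and IP comparisons share no libraries.

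Among 16 nucleotidases and related phosphatases, which strip phosphate from nucleotides, 7 rose and 7 fell after PO dosing, and 6 rose and 6 fell after IP dosing (median 0.08 and 0.12). Samhd1, which breaks down deoxynucleotides, averaged 167 ± 33.5 CPM in IL-23 PO mice against 43.7 ± 4.38 CPM in vehicle PO mice (SD, n = 4 each). In IL-23 IP mice it averaged 261 ± 149 CPM, against 45.5 ± 7.47 CPM in vehicle IP mice. Its log2 fold change was 1.94 ± 0.27 (PO, edgeR adjusted p 1.06e-05) and 2.53 ± 0.27 (IP, edgeR adjusted p 9.82e-07). Without library 28 the IP value was 2.06. Alpl, an alkaline phosphatase, rose by 2.17 ± 0.36 (PO) and 2.62 ± 0.37 (IP) on the log2 scale. Entpd3, an ectonucleotidase, rose by 1.54 ± 0.45 (PO) and 1.29 ± 0.43 (IP); without library 28 the IP value was 0.89 and was no longer called (edgeR adjusted p 0.0751). Nudt16, a nucleotide diphosphatase, fell, with -1.43 ± 0.25 (PO) and -0.79 ± 0.25 (IP).

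Of 15 other breakdown enzymes, 4 rose, 4 fell and 7 did not pass after PO dosing, and 5 rose, 3 fell and 7 did not pass after IP dosing (median -0.09 and 0.07). The aldehyde oxidases, relatives of xanthine dehydrogenase, differed from one another: Aox4 rose, Aox1 and Aox2 fell, and Aox3, added here because it completes the family, did not pass (-0.29 ± 0.27 in PO mice, edgeR adjusted p 0.349; -0.55 ± 0.28 in IP mice, 0.0945). Aox4 rose to 192 ± 28.6 CPM in IL-23 PO mice, against 40.0 ± 10.7 CPM in vehicle PO mice (log2 fold change 2.25 ± 0.23, edgeR adjusted p 4.52e-07; 1.97 ± 0.23 in IP mice). Aox1 averaged 6.14 ± 1.21 CPM in IL-23 PO mice against 23 ± 3.57 CPM in vehicle PO mice (-1.89 ± 0.19, edgeR adjusted p 4.59e-07; IP -1.63 ± 0.20). Aox2 fell as well, with -1.97 ± 0.32 (PO) and -1.45 ± 0.31 (IP). Ampd1, the muscle form of AMP deaminase, fell with -1.44 ± 0.28 (PO) and -1.07 ± 0.28 (IP). The 7 skeletal muscle markers also fell, all 7 in both routes, with sums of 1151 to 2214 CPM in IL-23 libraries against 2582 to 5653 CPM in vehicle libraries, and their part in the Ampd1 value was not tested.

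Purine salvage split by gene. Of 9 tested genes, 3 rose, 5 fell and 1 did not pass after PO dosing, and 3 rose, 4 fell and 2 did not pass after IP dosing (median -0.33 and -0.15). Aprt, which salvages adenine as Hprt does hypoxanthine, averaged 130 ± 15.1 CPM in IL-23 PO mice and 59.5 ± 7.69 CPM in vehicle PO mice (SD, n = 4 each). Its log2 fold change was 1.12 ± 0.12 (PO, edgeR adjusted p 7.06e-07) and 1.04 ± 0.12 (IP, 2.19e-06). Adk, which returns adenosine to AMP and so competes with Ada for it, averaged 58.6 ± 2.77 CPM in IL-23 PO mice and 101 ± 6.64 CPM in vehicle PO mice. Its log2 fold change was -0.79 ± 0.08 (PO, edgeR adjusted p 4.07e-07) and -0.47 ± 0.08 (IP, 9.05e-05). Gmpr, which converts GMP to IMP, fell with -1.03 ± 0.24 (PO) and -0.95 ± 0.24 (IP), and Dguok, the mitochondrial deoxyguanosine kinase, with -0.58 ± 0.13 and -0.50 ± 0.13. Dck, a deoxynucleoside kinase, rose with 0.54 ± 0.15 (PO) and 0.72 ± 0.15 (IP). Prps1, which makes the phosphoribosyl donor of salvage and synthesis, rose with 0.29 ± 0.09 (PO) and 0.30 ± 0.09 (IP). With plain library sizes the Prps1 values were 0.10 and 0.09 and the PO value of Dck 0.35, none of them called.

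Of 11 genes of purine synthesis, 5 rose and 2 fell after PO dosing, and 7 rose and 1 fell after IP dosing (median 0.20 and 0.28). Gmps, which makes GMP, averaged 119 ± 14.3 CPM in IL-23 PO mice and 73.3 ± 10.2 CPM in vehicle PO mice (log2 fold change 0.70 ± 0.11; IP 0.77 ± 0.11). Impdh1, which commits IMP to guanine nucleotides, rose by 0.75 ± 0.11 (PO) and 0.72 ± 0.11 (IP). Pfas, an enzyme of the early pathway, rose by 0.62 ± 0.08 (PO) and by 0.22 ± 0.08 (IP, edgeR adjusted p 0.0275). Its IP value was 0.002 with plain library sizes, and 0.19 to 0.26 with 1 library left out, where 5 of 16 such fits, those without library 25, 31, 49, 50 or 67, lost the call. Paics, of the same pathway, fell with -0.20 ± 0.07 in PO mice (-0.40 with plain library sizes) and had -0.09 ± 0.07 in IP mice, which did not pass (edgeR adjusted p 0.238). Adssl1, the muscle form of adenylosuccinate synthase, fell with -1.13 ± 0.17 (PO) and -0.90 ± 0.17 (IP), beside the fall of the skeletal muscle markers given above.

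Of 9 tested transporters of urate and nucleosides, 2 rose and 3 fell after PO dosing, and 3 rose and 3 fell after IP dosing (median -0.04 and 0.03). Slc28a3, a concentrative nucleoside transporter, averaged 31.2 ± 2.57 CPM in IL-23 PO mice and 7.41 ± 0.752 CPM in vehicle PO mice (log2 fold change 2.06 ± 0.19, edgeR adjusted p 1.75e-07; IP 1.68 ± 0.19). Slc28a1, of the same family, fell with -1.29 ± 0.26 (PO) and -1.77 ± 0.27 (IP). Slc2a12, which carries hexoses and urate, averaged 15.7 ± 3.45 CPM in IL-23 PO mice and 60.8 ± 3.36 CPM in vehicle PO mice (-1.95 ± 0.19; IP -1.89 ± 0.19). Slc29a2, an equilibrative nucleoside transporter, rose with 1.01 ± 0.19 (PO) and 0.75 ± 0.19 (IP). The renal urate exchanger Slc22a12 had 6 reads over the IL-23 libraries and 11 over the vehicle libraries, and Slc17a1 had none in any library.

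Among the 3 tested adenosine receptors, Adora2b, the low-affinity receptor, averaged 24.8 ± 7.88 CPM in IL-23 PO mice and 9.41 ± 1.70 CPM in vehicle PO mice. Its log2 fold change was 1.39 ± 0.24 (PO) and 1.36 ± 0.24 (IP), and it was the 1 receptor that rose in each route (list median -0.35 and 0.51). Adora1 fell with -1.21 ± 0.31 in PO mice and had -0.58 ± 0.33 in IP mice, which did not pass (edgeR adjusted p 0.135; called at -0.80 with plain library sizes). Of 9 tested pyrimidine genes, which serve here as the neighbouring pathway, 4 rose and 4 fell after PO dosing, and 3 rose and 4 fell after IP dosing (median -0.31 and 0.01). Upp1, the uridine counterpart of Pnp, averaged 9.38 ± 3.20 CPM in IL-23 PO mice and 1.81 ± 0.618 CPM in vehicle PO mice (2.33 ± 0.33; IP 2.89 ± 0.34). Uck2, a uridine and cytidine kinase, rose with 0.90 ± 0.13 in both routes. Dpyd, which starts pyrimidine base breakdown, fell with -1.67 ± 0.26 (PO) and -1.34 ± 0.26 (IP). Upb1, its last enzyme, fell narrowly with -0.90 ± 0.38 (PO, edgeR adjusted p 0.0494) and -1.08 ± 0.42 (IP, 0.0335), at levels near 1 CPM. Of the 16 fits without 1 library, 12 lost the PO call (range -1.05 to -0.62), all but those without library 14, 27, 28 or 31, and 4 lost the IP call (range -1.43 to -0.74), those without library 28, 49, 61 or 67. DESeq2, RLE factors and both other count filters lost the PO call too.

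**Figure D4:**
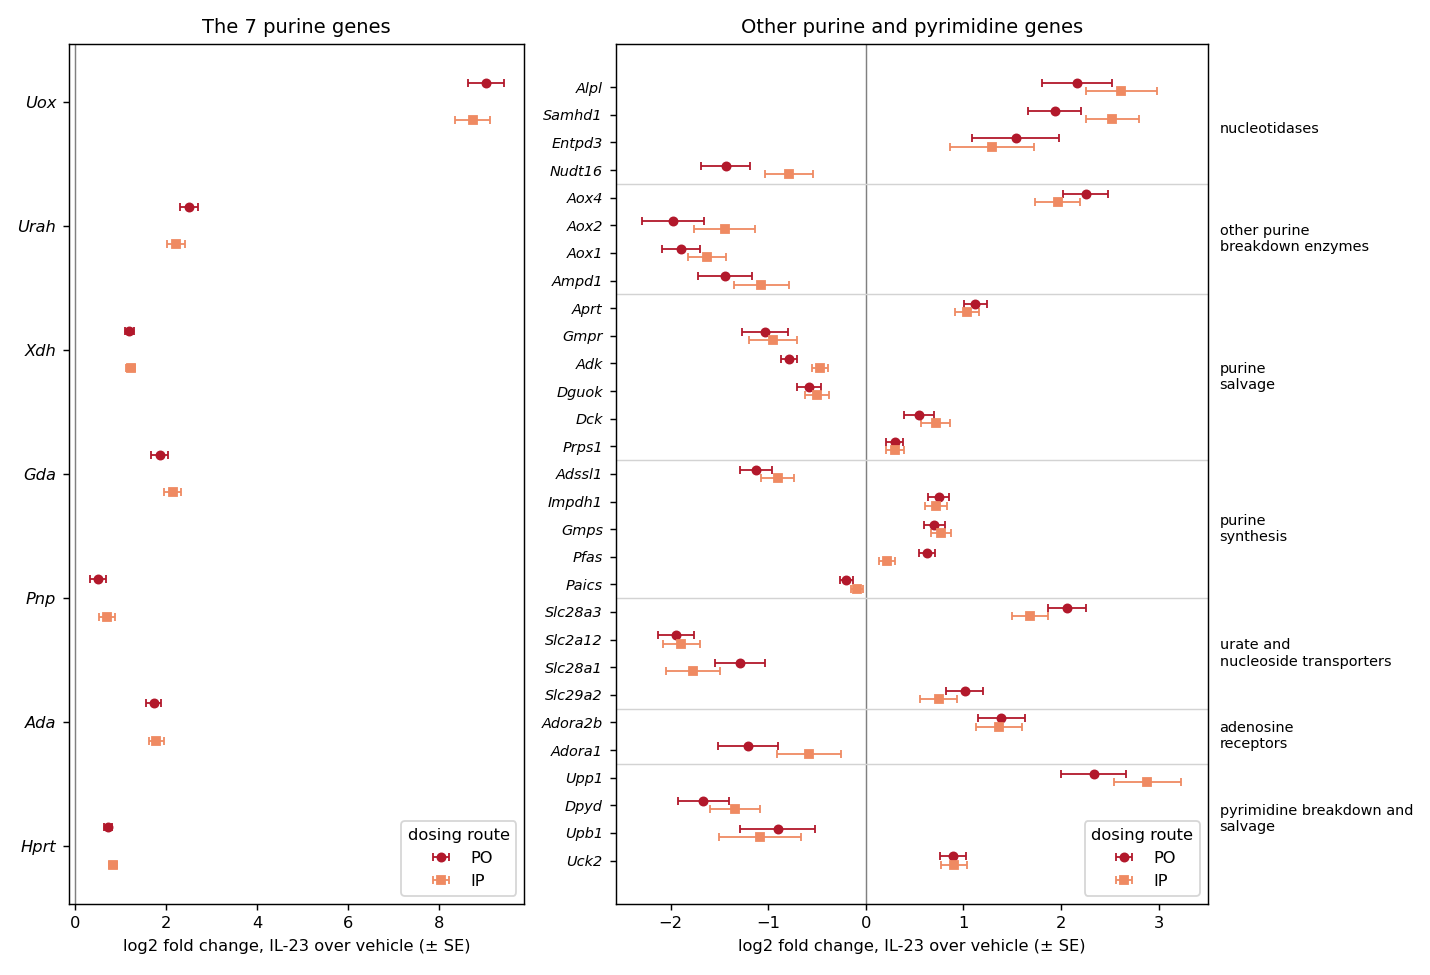
Log2 fold change of IL-23 over vehicle with its SE, for PO (circles) and IP dosing (squares), of the 7 genes (left) and of 29 other purine and pyrimidine genes grouped by list (right); the horizontal ranges of the panels differ. All 7 genes lie right of 0, with Uox at 9.03 and 8.74, while the other genes lie on both sides, from -1.97 for Aox2 to 2.89 for Upp1. The SE bars of Uox understate its error.

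The genes whose pattern over all 16 libraries was most like that of Uox, by Pearson r of log2 CPM, were Defb3 (0.99), Ndufa4 (0.99), Stom (0.99), Fetub (0.99) and Slc26a4 (0.99). All 5 were higher in IL-23 mice; Defb3, a beta-defensin, averaged 68.7 CPM in IL-23 libraries and 0.213 CPM in vehicle libraries. Such likeness was common, since 1745 of the 14671 genes had r above 0.9 with Uox. Of the other members, Xdh, Ada, Urah, Hprt and Gda lay between 0.95 and 0.97 and Pnp at 0.70. Over all 16 libraries, r with Uox mainly follows the difference between IL-23 and vehicle. The members were chosen on that difference, so nothing is read from their r. After group means were subtracted, 0 genes exceeded 0.9. The closest were then Btbd9 (0.81), Zcchc9 (0.80), D430041D05Rik (0.79), Mphosph6 (0.78) and 4930483K19Rik (0.75), while the other members ran from -0.47 to 0.25. These correlations are descriptions over 16 libraries that share the 4 groups. Those after subtraction rest largely on vehicle libraries, which held 0 to 9 Uox reads, and so mostly follow counting error of Uox. The genes named as closest are the highest of all genes tested.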

How the data were processed

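Total RNA libraries (TruSeq Stranded Total RNA, Illumina HiSeq, per the labels' protocols) were handled with FastQC, STAR and featureCounts (Subread 1.5.0) on GRCm38, per the submitters' processing notes; the sources used here do not give the annotation release, strand setting or multimapping rule. The authors deposited unscaled counts of reads for each gene. The 7 members and all gene lists were chosen with earlier results of these data known.

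Counts were fitted in R 4.3.3 with edgeR 4.0.16 (TMM, filterByExpr with minimum count 10, 14671 genes, quasi-likelihood fit of 4 group means, 12 residual degrees of freedom). Tests were 2-sided, Benjamini-Hochberg adjusted over all genes and called below 0.05. SE was taken as the size of the log2 fold change divided by the root of the F statistic, which understates the error of Uox between IL-23 and vehicle. CPM uses TMM factors, and log2 CPM a prior count of 2. Exon lengths came from GENCODE M21 and positions from RefSeq GRCm38.p6. From each of 7 pathway lists, the text names up to 4 genes with the largest PO change among those called, and any called against most of its list. Alternatives were RLE factors, plain library sizes, other count filters, DESeq2 1.42.0, limma-voom 3.58.1, fits of only the groups compared, and leaving out each library. The scripts were tested on simulated data. Intervals and floors of 3 counts cover counting error only.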

Additional observations from a re-analysis of the deposited data

Results flagged for a closer look

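In 28 sets of 4 libraries (7 genes in 4 groups), 5 held an outlying library. Its gap to the nearest other, divided by the range of the set, exceeded Dixon's 95% critical value for 4 samples. For a single set chance gives about 1 in 20. The sets share libraries and hold genes that vary together, so they are not independent. Urah stood at 838 CPM in IL-23 IP library 25, against 485 to 541 CPM in the other 3. Pnp stood at 118 CPM and Gda at 204 CPM in IL-23 IP library 28, against 56.2 to 64.9 CPM and 112 to 128 CPM in the other 3. This library also had the highest monocyte, fibroblast and T cell marker sums of the IL-23 libraries, and the lowest keratinocyte marker sums. Gda stood at 123 CPM in IL-23 PO library 26, against 94.7 to 98.4 CPM in the other 3. Xdh stood at 88.8 CPM in vehicle PO library 33, against 74.6 to 76.4 CPM in the other 3.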

How the results depend on the processing

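No paired analysis was possible because no replicate number is shared between groups. The counts of called genes among the pathway lists and the members stayed within 1.5 times their values under every alternative run. Over all genes, the number that rose in IP mice was 2871 with plain library sizes against 4519 with TMM, and DESeq2 called 57 genes between routes in IL-23 mice where edgeR called 0. All 7 members kept a positive difference between IL-23 and vehicle in both routes. Sign changes among the values followed were in the 3 route differences of Uox. Its IL-23 effect in IP minus PO mice, -0.30, ran from -1.34 to 0.39 with 1 library left out, and its IP minus PO difference in IL-23 mice, -0.09, from -0.23 to 0.16, where the positive value came without IL-23 PO library 26. In vehicle mice its IP minus PO difference, 0.21, ran from -0.48 to 1.25, with -0.07 and -0.01 without vehicle PO libraries 27 and 51; Uox did not pass the filter when only the vehicle groups were fitted. Among single genes, 7 values of members moved by more than 1 SD between replicates, 32 lost a call, 2 gained one and 1790 kept their call or value. The Paics call in PO mice was lost without the count filter (-0.17), and Paics in IP mice was called at -0.31 with plain library sizes. The fit of only the groups compared does not apply to the difference between routes. Depth limits Uox in vehicle mice, at 0 to 9 reads per library, and Urad, Allc and Slc17a1, at 0 to 4 reads in all.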

Other observations

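The genes beside the 7 members on the chromosome were looked up by position after the members' values were known. Among all genes tested, 29.2% rose and 34% fell after PO dosing, and 30.8% rose and 30.9% fell after IP dosing. Both neighbours of Gda, Zfand5 at 104467 bases and 1110059E24Rik at 124652 bases from it, rose in IL-23 mice. Zfand5 averaged 177 ± 12.8 CPM in IL-23 PO mice and 93.7 ± 6.71 CPM in vehicle PO mice (SD, n = 4 each). Its log2 fold change was 0.92 ± 0.08 (PO, edgeR adjusted p 1.22e-07) and 1.0 ± 0.08 (IP, 7.58e-08). The other neighbour, 1110059E24Rik, had 0.77 ± 0.08 (PO) and 0.73 ± 0.08 (IP). Ehd3, beside Xdh, fell with -0.73 ± 0.17 (PO) and -0.59 ± 0.16 (IP). Pkig, beside Ada, had 0.25 ± 0.11 (PO, edgeR adjusted p 0.0465) and 0.22 ± 0.11 (IP, 0.0821). Pip4p1 beside Pnp, Ccn5 beside Ada and Phf6 beside Hprt did not pass in either route. The neighbours of Uox were hardly counted: 4930503B20Rik had 1 read in IL-23 PO mice against 9 in vehicle PO mice, and 0 in IL-23 IP mice against 6 in vehicle IP mice.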
